A study of Rattus norvegicus with 6 samples.

Results

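Transcripts of the NMDA receptor subunits were examined in rat medial prefrontal cortex (mPFC), taken 90 min after an intraperitoneal injection of lysergic acid diethylamide (LSD, given as (+)-LSD tartrate) at 1.0 mg/kg or of saline. The rats were male, of the Sprague-Dawley strain, and weighed 250 to 275 g, with no age given in the sources used here. Expression was read on Affymetrix rat genome arrays, with 3 arrays for saline and 3 for LSD. The members are all probe sets whose platform annotation names exactly Grin1, Grin2a, Grin2b, Grin2c or Grin2d and no other gene (the gene family itself was chosen with earlier results of these data known). This gave 11 of 8740 probe sets and 5 of 4736 gene symbols, with 4 probe sets for Grin1, 1 for Grin2b and 2 for each of the others. Tissue of 4 rats per treatment was pooled before extraction according to the labels, but the study counts each array as a separate pool of a pair of rats. The p-values therefore measure only how much the arrays of a group vary, a variation that may be technical. The second line of each sample description names the opposite treatment to its title and treatment label. Titles and treatment labels were followed, and with the other reading every sign below would turn.

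NMDA receptors are glutamate-gated ion channels that open when glutamate and a co-agonist, glycine or D-serine, are bound and the membrane is depolarised. GluN1, the product of Grin1, is the obligatory subunit, and the GluN2 subunits encoded by Grin2a to Grin2d bind glutamate and set the kinetics and the magnesium block of the channel. GluN2A and GluN2B are the main GluN2 subunits of adult forebrain neurons. GluN2C is best known from cerebellar granule cells and occurs in cortical astrocytes, while GluN2D is found in interneurons and in deeper brain regions. Calcium entering through these channels drives synaptic plasticity, and drugs that block them are, like LSD, used to model psychosis in animals.

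The question was whether a single dose of LSD altered the transcripts of these subunits within 90 min. At an adjusted p of 0.05 in limma, 0 of the 11 members passed, where 6 of all 8740 probe sets did (0.0686%). An unadjusted limma result under 0.05 was found for 1 of the 11, against 3.92% of all probe sets. The log2 differences of LSD minus saline ran from -0.28 to 0.19 with a median of -0.06, beside a median of 0.005 over all probe sets. Grin2a was nominally higher in both of its probe sets, Grin2b was nominally lower, and Grin2c was nominally lower in both. Grin1 and Grin2d had probe sets of either sign.

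In 10 of the 11 probe sets the 95% interval of the difference lay within a 1.5-fold change in either direction, as it did for 92.4% of all probe sets. The exception was the Grin2d probe set D13213_s_at, whose interval reached down to a 1.58-fold lower level. With 1 array left out, 6 (without Saline 3 or LSD 2) to 11 (without Saline 1 or LSD 1) of the members had such an interval. The intervals describe these arrays, on the scale of the deposited values, on which folds of dim probe sets are compressed. The level of 4 members was below 5.43 log2 units, the median over all probe sets, and that of the other 7 was above it. No detection calls were used, so a dim value cannot be told from background.

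**Figure D1:**
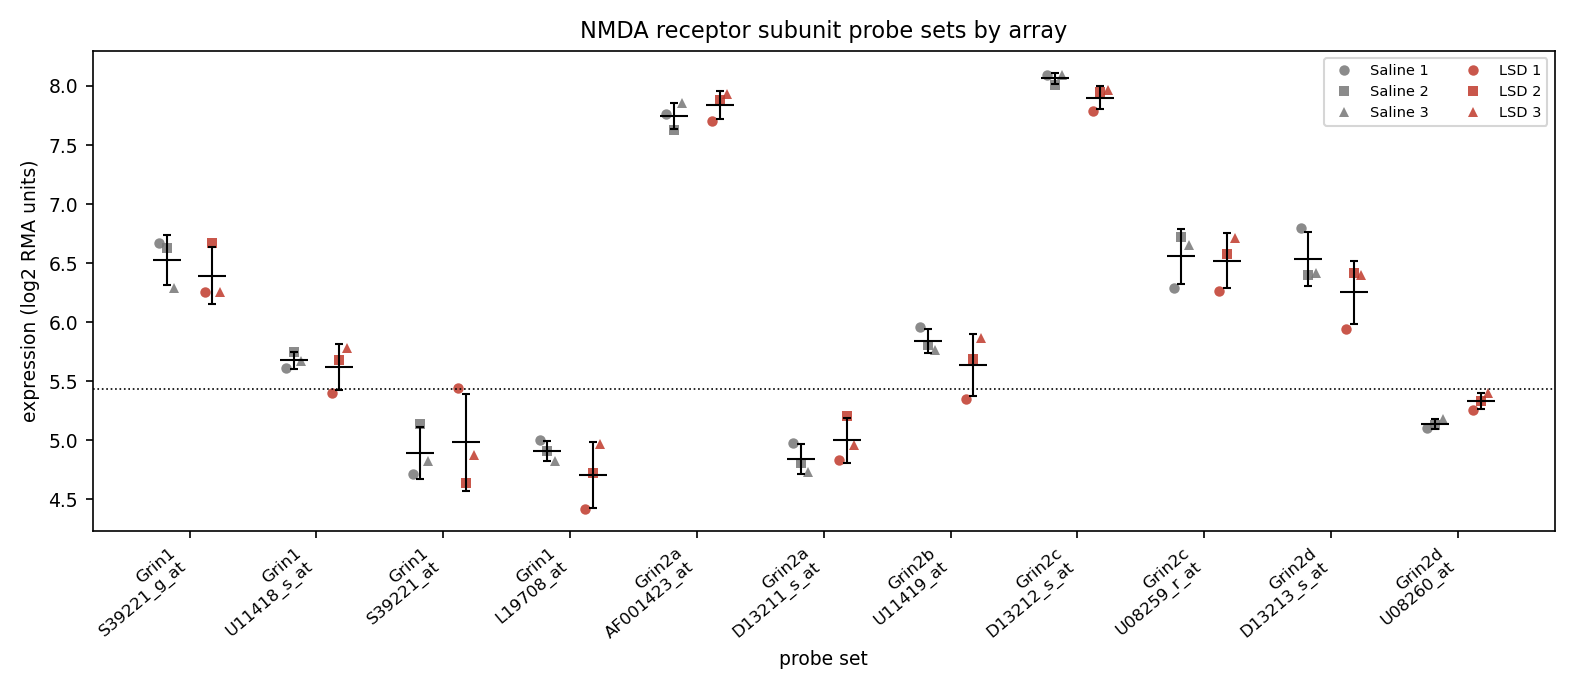
Expression in log2 RMA units (vertical axis) of the 11 NMDA receptor subunit probe sets (horizontal axis), in which each point is an array (grey for saline, red for LSD), marker shapes give the array number, and black bars show mean and SD of the 3 arrays. The dotted line is the median level of all probe sets (5.43), and the groups are separate only for the Grin2c probe set D13212_s_at and the Grin2d probe set U08260_at.

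Grin1, the gene of the obligatory subunit, was read by 4 probe sets, and in each the groups overlapped. The brightest, S39221_g_at, was at 6.67, 6.63 and 6.29 log2 units on saline arrays 1 to 3 and at 6.25, 6.67 and 6.25 on LSD arrays 1 to 3. Saline 1, Saline 2 and LSD 2 formed the upper values and the remaining 3 arrays the lower ones, so that high and low arrays occurred in both groups. The difference was -0.13 ± 0.15 (SE, n = 3 per group, limma adjusted p = 0.981).

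The second Grin1 probe set, U11418_s_at, read 5.61, 5.75 and 5.67 log2 units on the saline arrays and 5.40, 5.68 and 5.78 on the LSD arrays. LSD arrays gave both the lowest and the highest value. The difference of -0.06 ± 0.11 (SE, n = 3 per group) was 0.05 without LSD 1. The suffix _s_at, which 1 probe set each of Grin1, Grin2a, Grin2c and Grin2d carries, means that the probes can match more than 1 transcript, so the signal cannot be assigned to the gene with certainty.

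The 2 dim Grin1 probe sets pointed in opposite directions. L19708_at was at 4.9997, 4.91 and 4.83 log2 units on the saline arrays and at 4.42, 4.72 and 4.97 on the LSD arrays, a difference of -0.21 ± 0.14 (SE, n = 3 per group). S39221_at was at 4.71, 5.14 and 4.83 on the saline arrays and at 5.44, 4.64 and 4.87 on the LSD arrays, a difference of 0.09 ± 0.20 (SE, n = 3 per group). The same array, LSD 1, was the lowest of 6 in the first of these and the highest of 6 in the second. Without LSD 1 the difference of S39221_at was -0.14, and without Saline 1 it was -0.00037. Although S39221_at and S39221_g_at carry the same sequence name, the difference between them within an array ranged from -2.03 log2 units on LSD 2 to -0.81 on LSD 1.

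The start of the Grin1 gene holds letters that Egr proteins, zinc finger factors made rapidly after neuronal activity, are known to bind. A promoter window from 250 bases before to 50 after the start was given for Grin1, Grin2c and Grin2d in the RefSeq sequences of the GRCr8 assembly, and was searched on both strands. The motif GCGGGGGCG was found in Grin1 and in neither of the others, and 2.73% of the 33469 windows of this length hold it. The Grin1 site is printed 5′ to 3′ on the minus strand, at chr3:28528710-28528739, with the motif in capitals at bases 26 to 34 counted from the start as base 1.
Grin1: gcgtcaggaaGCGGGGGCGgtgggaggggt
The last 5 letters of the motif are also part of a match to GGGCGG, the letters of the Sp1 motif, which 33.1% of all windows hold. The cyclic AMP response element TGACGTCA (1.83% of windows) and the AP-1 motif TGANTCA (7.33%) had no match in the 3 windows. These are matches of letters only, and the Grin1 transcript beside this site did not pass the test in any of its 4 probe sets.

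Grin2a, which encodes the GluN2A subunit of mature forebrain synapses, was nominally higher after LSD in both probe sets. AF001423_at read 7.76, 7.63 and 7.85 log2 units on the saline arrays and 7.70, 7.88 and 7.93 on the LSD arrays. LSD 2 and LSD 3 were above every saline array, and LSD 1 was below Saline 1 and Saline 3. The difference was 0.09 ± 0.10 (SE, n = 3 per group, limma adjusted p = 0.981), with a 95% interval from 0.91-fold to 1.25-fold.

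The dimmer Grin2a probe set, D13211_s_at, was at 4.98, 4.81 and 4.74 log2 units on the saline arrays and at 4.84, 5.21 and 4.96 on the LSD arrays. The groups overlapped, with Saline 1 above LSD 1 and LSD 3. The difference of 0.16 ± 0.12 (SE, n = 3 per group, limma adjusted p = 0.981) stayed positive without any 1 array, between 0.06 (without LSD 2) and 0.24 (without LSD 1). For AF001423_at the same range was 0.03 to 0.16.

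Grin2b encodes GluN2B, the subunit with slower decay that predominates early in development and anchors the kinase CaMKII. Its single probe set, U11419_at, read 5.96, 5.80 and 5.76 log2 units on the saline arrays and 5.35, 5.69 and 5.87 on the LSD arrays. LSD 3 lay above Saline 2 and Saline 3, and LSD 1 lay apart below all other arrays. The difference was -0.21 ± 0.14 (SE, n = 3 per group, limma adjusted p = 0.981), which was -0.07 without LSD 1 and -0.32 without LSD 3.

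The balance of Grin2a to Grin2b, whose shift marks cortical maturation, was followed as the log2 difference of their brightest probe sets within each array. Only its change between groups can be read, since levels of different probe sets are not comparable. The values were 1.80, 1.83 and 2.09 log2 units on the saline arrays and 2.35, 2.20 and 2.06 on the LSD arrays. LSD 1 and LSD 2 lay above every saline array, whereas LSD 3 was below Saline 3. The mean was 1.91 ± 0.16 for saline and 2.20 ± 0.14 for LSD (SD, n = 3), a difference of 0.30 that did not pass (two-sided exact permutation p = 0.2, where 3 arrays against 3 cannot go below 0.1). Without LSD 1 the difference was 0.23, leaving out any other array gave values up to 0.39, and without Saline 1 and LSD 1 together it was 0.17.

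Grin2c, the gene of GluN2C, was the member whose brightest probe set separated the groups with LSD lower. D13212_s_at read 8.09, 8.01 and 8.09 log2 units on the saline arrays and 7.79, 7.95 and 7.97 on the LSD arrays. All 3 LSD arrays were below all saline arrays, by 0.04 log2 units between the nearest of them. A separation in this direction was found for 1 of the 11 members and for 3.79% of all probe sets. The difference of -0.16 ± 0.09 (SE, n = 3 per group) is a 1.12-fold lower level and did not pass (limma adjusted p = 0.981). Leaving out 1 array kept it between -0.20 and -0.11, and without Saline 1 and LSD 1 together it was -0.09.

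The other Grin2c probe set, U08259_r_at, did not separate the groups. It read 6.29, 6.72 and 6.66 log2 units on the saline arrays and 6.26, 6.58 and 6.72 on the LSD arrays. The lowest arrays were number 1 of both groups. The difference was -0.04 ± 0.15 (SE, n = 3 per group), and it was 0.09 without LSD 1, 0.05 without Saline 2 and 0.01 without Saline 3. The suffix _r_at marks probes chosen with some design rules relaxed.

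Markers of the cells that Grin2c is best known from were read beside it, and none passed. The summed linear level of the 8 astrocyte markers read on the array ran from 6386 to 6493 on the saline arrays and from 6026 to 6374 on the LSD arrays, without overlap, but the groups overlapped when any 1 of S100b, Slc1a3, Aldoc, Gja1 or Glul was left out of the sum (4461 to 4842 and 4558 to 4720 without S100b). Of the 8 markers, 4 were nominally higher and 4 lower, with Slc1a3, an astrocytic glutamate transporter, at -0.25 ± 0.10 log2 units, the calcium-binding protein gene S100b at -0.24 ± 0.10 and the water channel gene Aqp4 at 0.41 ± 0.13 (SE, n = 3 per group). Of 10 cerebellar markers 3 were measured, and their summed level overlapped between groups (162 to 179 and 160 to 164). Gabra6, a GABA receptor subunit of granule cells, lay between 4.47 and 5.28 log2 units over the 6 arrays, under the median of all probe sets, and differed by -0.27 ± 0.17 (SE, n = 3 per group). Neurod1, at a mean of 3.26, differed by -0.19, and Calb1, at a mean of 6.95 and also made by cortical interneurons, by 0.01. The part of these cells in the Grin2c difference was not tested. In pooled tissue, fewer cells of a type and less RNA per cell cannot be told apart.

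Grin2d, the gene of GluN2D, was read by 2 probe sets of opposite sign. D13213_s_at was at 6.80, 6.40 and 6.41 log2 units on the saline arrays and at 5.94, 6.42 and 6.40 on the LSD arrays. Saline 1 was high and LSD 1 low, and the remaining 4 arrays lay within 0.02 log2 units of each other. The difference of -0.28 ± 0.16 (SE, n = 3 per group, limma adjusted p = 0.981), the largest in size among the 11, was 0.0015 without these 2 arrays.

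The other Grin2d probe set, U08260_at, separated the groups with LSD higher. It read 5.10, 5.13 and 5.18 log2 units on the saline arrays and 5.26, 5.33 and 5.40 on the LSD arrays, each of which was above every saline array. Such a separation was found for 1 of the 11 members and for 6.58% of all probe sets. The means of 5.14 ± 0.04 and 5.33 ± 0.07 (SD, n = 3) differ by 0.19 ± 0.08 (SE), a 1.14-fold difference that did not pass over all probe sets (limma adjusted p = 0.981). This was the 1 member with an unadjusted result under 0.05. Leaving out 1 array kept the difference between 0.16 and 0.23, and without Saline 1 and LSD 1 together it was 0.21. The level was below the median of all probe sets on all 6 arrays.

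Probe sets of the same gene were set against each other within each array, in 6 comparisons. The largest difference between groups was that of the Grin2d pair. U08260_at minus D13213_s_at was -1.70, -1.27 and -1.23 log2 units on the saline arrays and -0.68, -1.08 and -1.0005 on the LSD arrays, without overlap. The difference of 0.48 had the smallest exact permutation p that 3 against 3 arrays allow (0.1, adjusted p = 0.6 over the 6 comparisons). It lay between 0.33 and 0.56 when 1 array was left out, and was 0.21 without Saline 1 and LSD 1 together. The other 5 comparisons, 3 for Grin1 and 1 each for Grin2a and Grin2c, overlapped between groups, with differences from -0.07 to 0.23 and exact permutation p from 0.5 to 0.8.

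**Figure D2:**
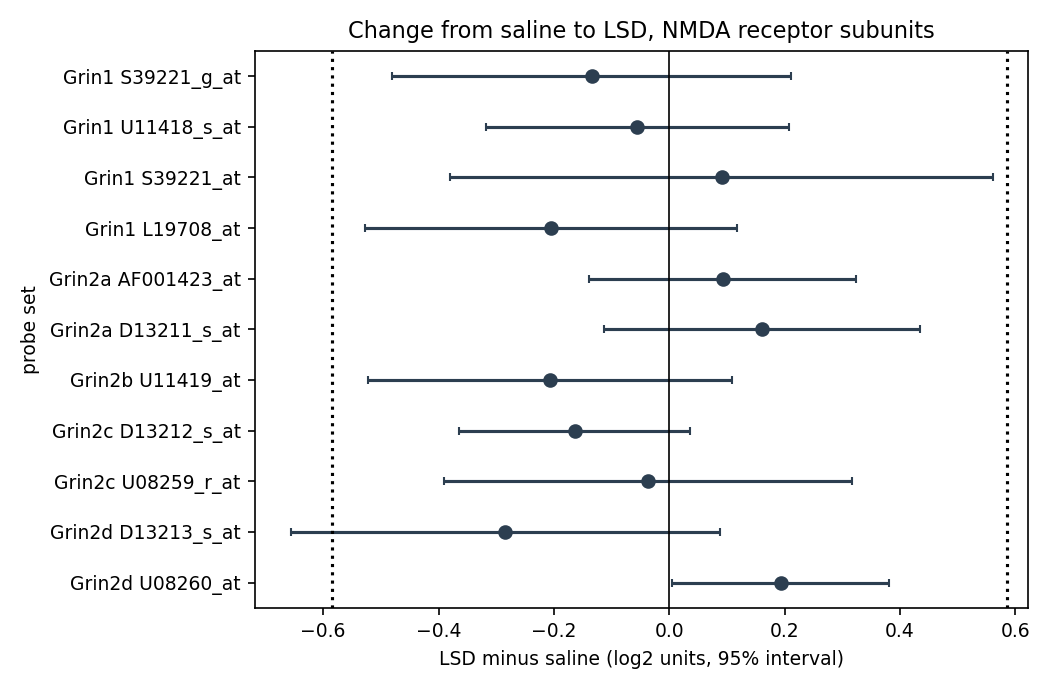
Log2 difference of LSD minus saline (horizontal axis) for each NMDA receptor subunit probe set (vertical axis), drawn as a point with its 95% limma interval (n = 3 arrays per group). Dotted lines mark a 1.5-fold change in either direction, which only the lower end of the Grin2d probe set D13213_s_at passes, and the interval of U08260_at alone lies on 1 side of 0.

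The sign of 3 members (U11418_s_at, S39221_at and U08259_r_at) turned when the array LSD 1 was left out. This array was the lowest of the 6 arrays in 6 of the 11 members, and in 24% of all probe sets. Its members lay at a median of -0.25 log2 units from the mean of the other 5 arrays, while the same median over all probe sets was -0.02. For the other arrays the members' median was between 0.02 and 0.16. The 6 members lowest on LSD 1 were U11418_s_at and L19708_at of Grin1, both Grin2c probe sets, the Grin2b probe set and D13213_s_at of Grin2d. Without Saline 1 and LSD 1, which an array weighting rated lowest (0.29 and 0.40), Grin2b differed by -0.0072, L19708_at by -0.02, S39221_g_at by 0.0051 and U11418_s_at by 0.02. In the same setting Grin2a differed by 0.17 (AF001423_at) and 0.31 (D13211_s_at), and S39221_at by -0.23, and none of the 11 passed.

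**Figure D3:**
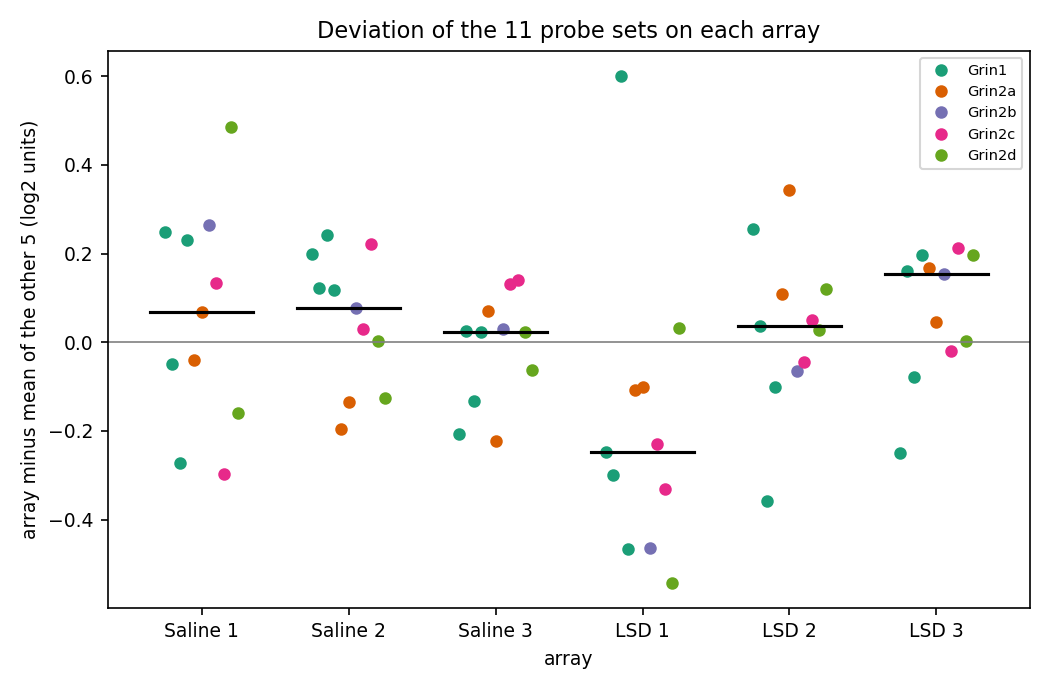
Each array's value minus the mean of the other 5 arrays in log2 units (vertical axis) for the 11 probe sets on each array (horizontal axis), coloured by gene, with a black line at the median. On LSD 1 the median is -0.25 and 9 of the 11 points are below 0, and the highest point there is the Grin1 probe set S39221_at.

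Over the arrays as a whole, Pearson correlations between pairs ran from 0.984 to 0.996 over 8740 probe sets. On Saline 1, 78 probe sets differed by over 1 log2 unit from the average of the other 5 arrays, against 21 on LSD 1. As a gauge of RNA integrity, the 3′ control probe set of beta-actin exceeded the 5′ one by 0.79 ± 0.04 log2 units on the saline arrays and 0.69 ± 0.04 on the LSD arrays (SD, n = 3), and the groups were separate (p = 0.1 in the exact permutation test, its smallest value). The GAPDH control probe sets gave 0.52 ± 0.04 and 0.49 ± 0.09 (SD, n = 3, exact permutation p = 0.7). As a check of the tissue, 5 of 10 markers of cortical excitatory neurons were measured. Nrgn, the postsynaptic protein neurogranin, was at 10.97 to 11.12 log2 units, and Neurod2 and Camk2a had means of 6.36 and 5.58, above the median of all probe sets, while the vesicular glutamate transporter gene Slc17a7 was at 4.51 to 4.87 and Rorb at 3.33 to 3.73, below the median of all probe sets. Striatal neuron markers were nominally lower in 6 of 7. A separation with LSD lower was found for 4 of the 7, beside 3.34% of all genes by brightest probe set. Their summed linear level overlapped (934 to 999 for saline, 881 to 991 for LSD), also when any 1 marker other than Pdyn was left out. Without Pdyn, the 1 nominally higher marker (0.07 log2 units), the sums did not overlap (397 to 416 for saline, 345 to 354 for LSD). The summed level of 7 microglia markers ran from 597 to 606 for saline and from 627 to 672 for LSD, without overlap. When Aif1 was left out of this sum, the groups overlapped (463 to 494 for saline, 491 to 543 for LSD). Of the 7 microglia markers, 5 were nominally higher and 2 lower. A separation with LSD higher was found for 1 of these 7, beside 6.97% of all genes by brightest probe set. Of the striatal and the microglia markers, 0 passed. The part of RNA integrity and of these markers in the members' differences was not tested.

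The brightest probe sets of Grin2b, Grin2c and Grin2d followed each other across arrays, with Pearson r of 0.86 to 0.92 in the 3 comparisons among them (n = 6 arrays). These values share the arrays and the low level on LSD 1, and are a description. Grin2a had r from -0.28 to 0.26 with the other members, and Grin1 had r from 0.36 to 0.61 with Grin2b, Grin2c and Grin2d. Among 4735 other genes, those most like Grin1 were Stk25 and Slc2a5 (r = 0.98 for both), and those most like Grin2a were Kcnab3, a potassium channel subunit gene, and Slc37a1 (r = 0.99 and 0.98). Grin2b was most like Notch1 and Mlnr (r = 0.99 for both), Grin2c most like Cntn4 and the kainate receptor gene Grik1 (r = 0.98 for both), and Grin2d most like Scgb1c1 and Pter (r = 0.99 for both), all over 6 arrays. With so few arrays, r above 0.9 was reached by 25 genes for Grin1 and by up to 130 (2.75%) for Grin2d.

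Grin3a, which encodes the glycine-binding GluN3A subunit that lowers calcium entry, was the further NMDA receptor gene on the array. Its 3 probe sets differed by 0.02 to 0.07 log2 units, and 0 passed. The brightest, AF061945_at, read 5.82, 5.94 and 5.89 log2 units on the saline arrays and 5.56, 6.02 and 6.26 on the LSD arrays, with LSD arrays lowest and highest.

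Genes that supply, anchor, modify and follow the receptor were described from 6 lists that named 96 genes, of which 71 were measured. By the brightest probe set of each gene, 36 had nominally higher and 35 nominally lower values, and the median difference was 0.006 log2 units, as over all 4736 genes (0.006). None passed over all probe sets, where 0.0211% of all genes did. Groups were separate with LSD higher in 6 of the 71 and with LSD lower in 1, beside 6.97% and 3.34% of all genes.

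Among postsynaptic scaffolds and anchors, 10 of 18 measured genes were nominally higher and 8 lower, and 0 passed. Dlg1, which encodes the scaffold SAP97, was at 4.82, 4.94 and 4.94 log2 units on the saline arrays and at 5.38, 5.14 and 5.37 on the LSD arrays. The LSD arrays were all above the saline arrays, and the difference of 0.39 ± 0.10 (SE, n = 3 per group, limma adjusted p = 0.772) was the largest of the 71. Its 2 other probe sets differed by 0.11 and 0.14. The brightest Dlg1 probe set, at a mean of 5.10, and the others, at 4.26 and 3.08, were below the median of all probe sets. Nefl, the light neurofilament, which binds GluN1, differed by 0.22 and, in its second probe set, by 0.18, and the groups were separate in both. Dlgap4, a scaffold partner of PSD-95, differed by -0.32 in its brightest and by -0.05 in its other probe set.

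Among kinases and phosphatases of the receptor, 10 of 23 were nominally higher and 13 lower, and 0 passed. Ppp3r1, the regulatory subunit of the phosphatase calcineurin, was at 7.39, 7.25 and 7.37 log2 units on the saline arrays and at 7.69, 7.77 and 7.56 on the LSD arrays. All LSD arrays were higher, by 0.33 ± 0.09 (SE, n = 3 per group, limma adjusted p = 0.874), and the second Ppp3r1 probe set, which also separated the groups, differed by 0.25. Camk2d, an isoform of the kinase CaMKII, differed by -0.28 in its brightest probe set and by -0.22 to 0.04 in 5 others. Gsk3b, a kinase of plasticity pathways, differed by 0.28 and, in its other probe set, by -0.07. Both Gsk3b probe sets, at means of 5.22 and 4.46, were below the median of all probe sets.

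Of the genes of glutamate and co-agonist supply and clearance 4 of 9 were nominally higher, and 0 passed. Slc1a3 was at 9.05, 9.18 and 9.02 log2 units on the saline arrays and at 8.98, 8.85 and 8.68 on the LSD arrays, all of them lower, while its 3 other probe sets differed by -0.18 to -0.01. Slc1a2, the main glial glutamate transporter, differed by 0.15 and by 0.03 to 0.34 in its 3 other probe sets, and Slc17a7 by -0.16. Trafficking and surface partners had 3 of 7 nominally higher and 0 passing. Lin7a, an adaptor for GluN2B transport, differed by -0.14 in its brightest probe set. Its other probe sets, at means of 3.28 and 3.43, differed by 0.006 and -0.15. The receptor tyrosine kinase gene Ephb1 differed by -0.15, and Lin7c, at a mean of 3.25, by -0.06. Lin7c and the dimmer Lin7a probe sets were below the median of all probe sets. Calcium signalling genes had 8 of 13 nominally higher and 0 passing, with the calcium sensor gene Hpca at 0.15, Camkk2 at -0.09 and the calmodulin gene Calm2 at -0.08. For Hpca all LSD arrays (8.75 to 8.80 log2 units) were above all saline arrays (8.61 to 8.64).

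**Figure D4:**
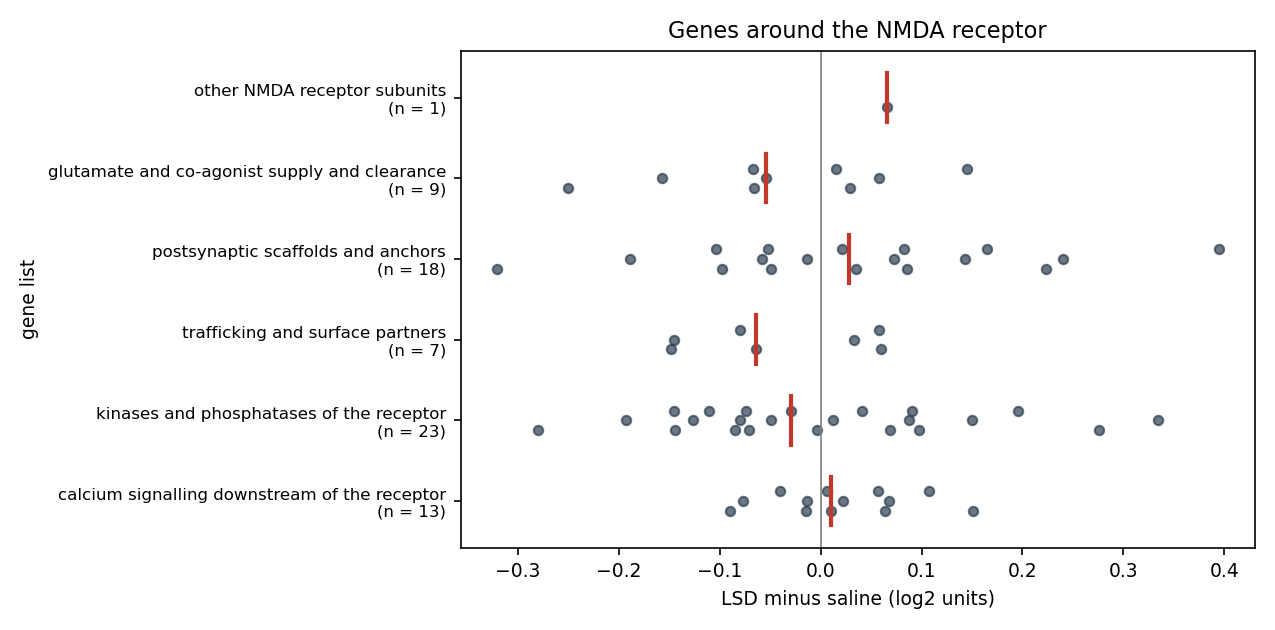
Log2 difference of LSD minus saline (horizontal axis) of 71 genes around the NMDA receptor in 6 lists (vertical axis), with 1 point per gene for its brightest probe set and a red line at the median of each list (n = 3 arrays per group). The list medians lie between -0.06 and 0.07, and the point farthest to the right is Dlg1.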

How the data were processed

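The deposited log2 values of 6 Affymetrix rat genome arrays were made by the authors using RMA as implemented in affy (version not given in the sources used here), which corrects background, normalises quantiles across arrays and summarises each probe set. A change shared by most transcripts is therefore not visible. Of 8799 probe sets, 59 controls were left out. Genes were named from the platform annotation, all 5 member symbols were found in the RefSeq table, and where 1 probe set stands for a gene it is the one with the highest mean. LSD and saline were set against each other in R 4.3.3 by the lmFit and eBayes functions of limma 3.58.1 (no covariates, two-sided test, Benjamini-Hochberg over all 8740 probe sets, threshold 0.05), without a filter on low values. Differences within arrays were compared by exact permutation of the 6 labels (20 assignments). The script was tested on simulated data. Arrays have no read depth, and their number limits the precision.

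Named genes were all members, up to 3 genes of lowest p in each pathway list, and the 2 genes most correlated with each member. The astrocyte, cerebellar and excitatory neuron markers were listed with those of interneurons (0 of 9 passed), oligodendrocytes (0 of 6), microglia (0 of 7), endothelium (0 of 6) and striatum (0 of 7). The members and lists were chosen with earlier results of these data known.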

Additional observations from a re-analysis of the deposited data

How the results depend on the processing

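No NMDA receptor subunit probe set passed in any of the 15 alternatives that gave it a value, with limma adjusted p between 0.161 (D13211_s_at of Grin2a, with array weights) and 0.9998 (S39221_at of Grin1, without Saline 1). Over all probe sets, 6 passed in the reported fit, 16 among probe sets at or above the median level, 20 with an intensity trend and robust prior, 42 with array weights, 1 with the brightest probe set per gene, and 0 to 3 when 1 array was left out. The smaller number of probe sets tested is part of the settings above the median level and per gene, and otherwise the cause was not tested. The 4 dim members have no value above the median level. With the replicate number as a block, 0 of all probe sets passed. Arrays of the same number deviated together with r of -0.02, -0.23 and 0.17, so the numbers were not taken to pair the arrays.

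Signs changed in Grin1, Grin2c and Grin2d. Array weights gave 0.13 for S39221_g_at and -0.15 for S39221_at. Without Saline 1 and LSD 1, chosen after seeing the data, the differences were 0.0051 for S39221_g_at, 0.021 for U11418_s_at, -0.23 for S39221_at and 0.0015 for D13213_s_at. Leaving out 1 array gave -0.14 to 0.26 for S39221_at, -0.14 to 0.055 for U11418_s_at and -0.17 to 0.091 for U08259_r_at. Within genes, the same ranges were -0.27 to 0.060 for L19708_at, -0.072 to 0.54 for S39221_at and -0.072 to 0.20 for U11418_s_at against S39221_g_at (-0.23 for S39221_at without Saline 1 and LSD 1), -0.037 to 0.14 for the Grin2a pair and -0.021 to 0.24 for the Grin2c pair. In every alternative that gave a value, both Grin2a probe sets and U08260_at of Grin2d were nominally higher and the Grin2b probe set and D13212_s_at of Grin2c nominally lower. L19708_at of Grin1 was nominally lower throughout.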
